A study of Homo sapiens with 8 samples.

Results

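Processing bodies (P-bodies) sorted from HEK293T cells were compared with the cytosol of the same kind of cells by the abundance of each gene's RNA. The comparison holds the 4 libraries of the count table, out of 8 in the series: sorted P-bodies 1 and 2 and cytosol 1 and 2. HEK293T is an established human cell line of embryonic kidney origin, and all 4 libraries came from cells carrying the PB-TRIBE-STAMP editors, a pair of RNA-editing enzymes directed to P-bodies. No treatment was named for either fraction, and cells without the editors were not part of the comparison. Libraries were made from 50 ng of RNA for sorted P-bodies and 100 ng for cytosol, so the amount of input goes with the fraction, and input and fraction cannot be told apart. Counts are relative to each library, so a rise is a larger share of a fraction's RNA and not more molecules per P-body. The labels do not tie libraries of a fraction to separate cultures; the p-values below therefore reflect only how much these libraries vary, which may be technical.

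P-bodies are cytoplasmic granules without a membrane that gather mRNAs with proteins of repression and decay, among them the helicase DDX6, the scaffolds EDC4 and LSM14A and the decapping factor DCP1A. Ribosomes are largely absent from them, and the mRNAs found in them are known to be poorly translated as a class. In human cells such mRNAs tend to use codons ending in A or U, and the share of G or C at the third codon position (GC3) is a common way to describe this.

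The table listed 59414 genes, of which 18745 had enough reads to be tested, and libraries held 21186963 to 23716926 reads. A gene passed at an adjusted p under 0.05 in edgeR's quasi-likelihood test: 5401 genes were higher in sorted P-bodies (28.8% of those tested) and 5440 lower (29.0%). Of those, 2753 (14.7%) and 1835 (9.79%) differed by more than 2-fold. Scaling by library size alone moved the median log2 fold change from -0.03 to -0.23, and the split became 4257 higher and 6911 lower. Of 13610 protein-coding genes tested, 4466 (32.8%) were higher and 4539 (33.4%) lower, with a median of -0.05, and these shares are the background for the counts that follow. Each of the 10841 genes that passed had the same direction in both same-numbered pairs of libraries. Of all 18745 genes tested, 16145 (86.1%) moved the same way in both pairs. The pairs hold the libraries that made the calls, so this is not separate support. Genes that HEK293T cells are known to express were present: 12 of 14 such markers were tested, with a summed level of 459 CPM in each sorted library and 586 and 620 CPM in cytosol 1 and 2, whereas PAX8 and NEFH had at most 1 read in any library. CPM here are counts scaled to the TMM library size and are not divided by gene length. Summed over 13 markers of blood, endothelium, liver and muscle, the level was 1.78 to 2.84 CPM, and CD3E and HBB were at 0 in all 4 libraries.

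RNAs rich in A and U at the third codon position made up most of the gains in the sorted fraction. The following stretches show what this looks like in genes that moved apart. Each is 30 codons from the middle of the longest annotated coding sequence, 5′ to 3′ on the coding strand, from the GENCODE v29 annotation of hg38. Capitals mark the third position of each codon. ZNF267 and ESF1 are low in GC3 and rose, TECR and CST3 are high in GC3 and fell, and MYH9 and RPS13 went against this pattern.
ZNF267: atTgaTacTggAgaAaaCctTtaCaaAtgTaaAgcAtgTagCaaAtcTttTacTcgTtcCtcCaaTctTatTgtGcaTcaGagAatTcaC
ESF1: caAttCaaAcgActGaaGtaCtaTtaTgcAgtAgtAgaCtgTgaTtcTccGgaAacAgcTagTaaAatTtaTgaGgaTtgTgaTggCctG
TECR: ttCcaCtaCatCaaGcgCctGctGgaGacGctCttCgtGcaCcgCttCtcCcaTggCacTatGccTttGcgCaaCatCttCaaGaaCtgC
CST3: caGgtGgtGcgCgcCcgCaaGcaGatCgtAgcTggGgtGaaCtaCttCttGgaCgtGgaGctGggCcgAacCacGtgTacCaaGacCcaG
MYH9: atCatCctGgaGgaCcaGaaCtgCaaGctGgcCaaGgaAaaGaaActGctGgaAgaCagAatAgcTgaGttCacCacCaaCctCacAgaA
RPS13: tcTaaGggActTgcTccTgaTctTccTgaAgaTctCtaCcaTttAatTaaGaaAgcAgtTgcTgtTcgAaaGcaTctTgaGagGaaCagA
Of the 30 positions in capitals, G or C fills 8 in ZNF267, 9 in ESF1, 27 in TECR, 26 in CST3, 22 in MYH9 and 8 in RPS13. Over the whole coding sequence GC3 was 31.5% in ZNF267, 32.9% in ESF1, 85.3% in TECR, 83.6% in CST3, 84.5% in MYH9 and 44.4% in RPS13.

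ZNF267, a zinc finger gene at chr16:31873807-31917357 on the plus strand, was at 123 and 313 CPM in sorted P-bodies 1 and 2 and at 22.9 and 24.9 CPM in cytosol 1 and 2, which is 3.19 ± 0.36 on the log2 scale (SE here and below; adjusted p = 5.3e-05, edgeR). ESF1, a nucleolar protein of ribosome assembly (chr20:13714322-13784919, minus strand), was at 86.6 and 256 CPM against 25.5 and 29.8 CPM, a change of 2.63 ± 0.40 (adjusted p = 0.00035, edgeR). Both genes lay above cytosol in each sorted library, and in both the second sorted library was more than 2-fold above the first. TECR, an enzyme of very long fatty acid synthesis (chr19:14517085-14565980, plus strand), was at 34.9 and 26.5 CPM in the sorted libraries and 139.7 and 156 CPM in cytosol (-2.27 ± 0.14, adjusted p = 3.9e-06, edgeR). CST3, the secreted protease inhibitor cystatin C (chr20:23626706-23638473, minus strand), was at 14.3 and 9.93 CPM against 70.8 and 78.7 CPM (-2.62 ± 0.16, adjusted p = 3.3e-06, edgeR). In TECR and CST3 the second sorted library was the lower of the pair, so it stood farther from cytosol in all 4 of these genes.

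Across 13538 protein-coding genes with an annotated coding sequence, the log2 fold change fell as GC3 rose, with a Spearman rho of -0.53 (-0.50 in pair 1 and -0.54 in pair 2). The relation changed little when gene length was held fixed (-0.50). These are descriptions across genes, which share the same 4 libraries and are not replicates. The genes were ranked by GC3 and cut into 5 groups of like size. In group 1, with the lowest GC3 (22.3% to 41.6%), 2010 of 2709 genes (74.2%) were higher in sorted P-bodies and 191 lower, with a median log2 fold change of 0.89. In group 5, with the highest GC3 (75.9% to 100%), 247 of 2708 (9.12%) were higher and 1321 (48.8%) lower, with a median of -0.42. Leaving out cytosol 1 or cytosol 2 lowered the 247 to 141 or 149, and leaving out cytosol 2 lowered the 191 to 111. The decline was steep up to the middle of the range and flat beyond it, since with 10 groups the medians of the top 4 lay between -0.44 and -0.38. Genes of group 1 took 33.1% and 38.1% of the coding reads in sorted P-bodies 1 and 2 and 22.1% and 22.4% in cytosol 1 and 2. Weighted by reads, mean GC3 was 51.8% and 50.0% in the sorted libraries and 55.8% and 55.7% in cytosol.

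**Figure D1:**
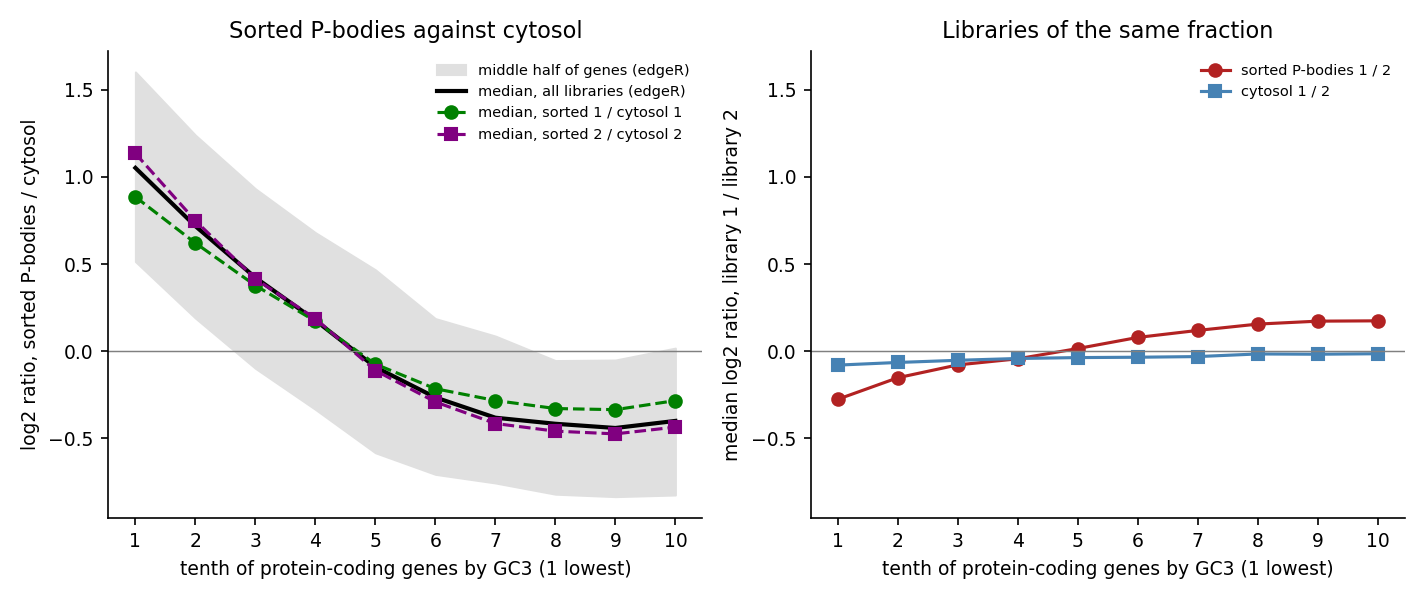
Median log2 ratio in 10 groups by GC3 among 13538 protein-coding genes. Left, sorted P-bodies over cytosol from edgeR (black, with the span between the quartiles in grey) and in each same-numbered pair (dashed), all falling from the lowest GC3 to the middle of the range; right, the ratio of library 1 to library 2 within each fraction, which rises with GC3 in sorted P-bodies and stays near 0 in cytosol.

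The 2 sorted libraries also differed from each other along GC3. The log2 ratio of sorted P-bodies 1 to 2 had a rho of 0.52 with GC3, against 0.17 for cytosol 1 to 2, and its median ran from -0.21 in group 1 to 0.17 in group 5. Among genes with a mean of at least 10 CPM the SD of that ratio was 0.26 in the sorted fraction and 0.10 in cytosol. The genes with the widest gap between the sorted libraries, ESF1, ZNF92, SMC3, ZNF267 and ZNF721, all had a GC3 of at most 35.2%, and all 5 were higher in the second library. SMC3, a ring subunit of cohesin, was at 180.4 and 475 CPM in the sorted libraries and 83.0 and 95.9 CPM in cytosol. The pattern between fractions was present in each sorted library taken alone: the median of group 1 was 0.99 without sorted P-bodies 1 and 0.73 without sorted P-bodies 2, and rho was -0.55 and -0.48. The part that base composition of the libraries themselves plays in the contrast between fractions was not tested.

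Length went the other way. The log2 fold change rose with the length of the coding sequence (rho = 0.37), of the whole transcript (0.42) and of the 3′ UTR (0.27), and hardly with that of the 5′ UTR (0.08). The relation with coding length was about as strong with GC3 held fixed (0.36), and coding length and GC3 were themselves weakly related (-0.13). The number of introns had a rho of 0.18 that went to 0.0032 once deposited gene length was held fixed. GC content of the 3′ UTR had a rho of -0.50, which shrank to -0.20 with GC3 held fixed. Cut into 5 groups in the same way, the longest coding sequences took 38.1% and 40.2% of coding reads in the sorted libraries and 26.9% and 26.6% in cytosol.

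Coding length and GC3 taken jointly separated the genes further. Of 726 genes in both the longest group by coding sequence and the lowest by GC3, 644 were higher and 12 lower, with a median of 1.24. Of 593 genes in the shortest group by coding sequence and group 4 by GC3, 29 were higher and 400 lower, with a median of -0.73. Long coding sequences with high GC3 did not rise as a group: 62 of 398 were higher and 149 lower (median -0.20). Short coding sequences with low GC3 split, with 142 of 347 higher and 88 lower (median 0.16).

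**Figure D2:**
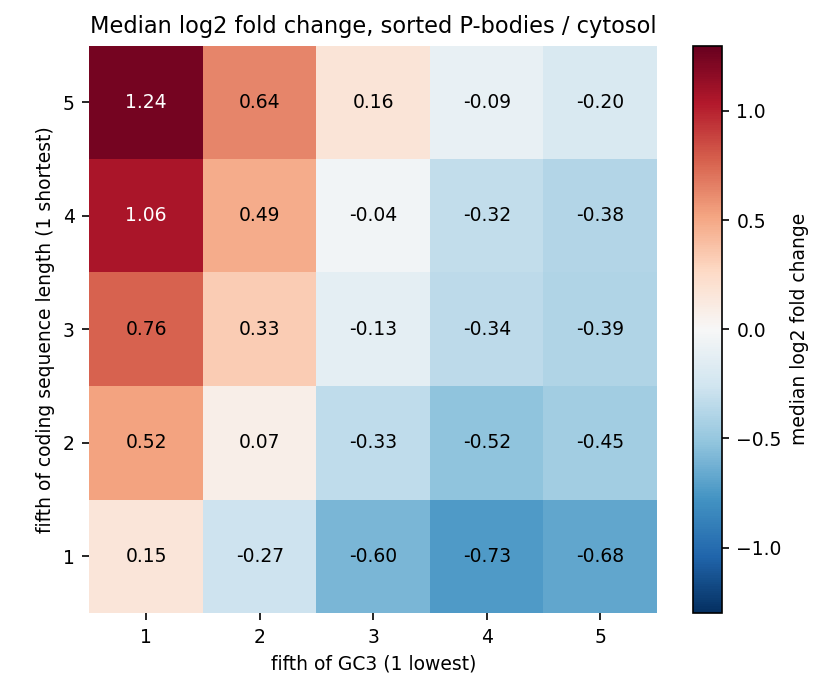
Median log2 fold change of sorted P-bodies over cytosol in 25 groups of protein-coding genes, by GC3 (columns, lowest at left) and coding length (rows, shortest at the bottom), 5 groups each. Medians run from 1.24 for long coding sequences with low GC3 to -0.73 for short ones in group 4 by GC3.

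To set genes beside others of like length and GC3, the joint trend was removed and the test repeated. Then 3475 of 13538 genes were higher (25.7%) and 4139 lower (30.6%). A value from this test is called a change at like length and GC3 below. It removes the trends with gene length and GC3 by construction and shows what departs from them. Gene length here is the deposited summed exon length, not coding length. With that length held fixed, coding length still had a rho of 0.23 with the log2 fold change. The part of coding length in the departures below was not tested. Without cytosol 1 or 2 there were 2315 or 2370 genes higher, and without sorted P-bodies 1 or 2 there were 4307 or 4225.

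Some genes with high GC3 rose. In the top group of 4 by GC3, 302 of 3385 genes were higher, 73 of them by more than 2-fold. MYH9, the heavy chain of nonmuscle myosin IIA (chr22:36281280-36387967, minus strand), was at 5153 and 4888 CPM in the sorted libraries and 342 and 349 CPM in cytosol, a log2 fold change of 3.86 ± 0.13 that became 4.14 at like length and GC3. MYH14, another nonmuscle myosin heavy chain, was at 695 and 631 CPM against 51.4 and 50.3 CPM (3.71). The actin-severing protein gelsolin, encoded by GSN, was at 323 and 285 CPM against 29.4 and 27.6 CPM (3.41). Plectin, a cross-linker of intermediate filaments and actin encoded by PLEC, was at 1202 and 1112 CPM against 144 and 145 CPM (3.00). In all 4 of these genes the first sorted library was slightly above the second, unlike in ESF1 or ZNF267. EPPK1, the plectin relative epiplakin (2.35), and ACTN4, an actin-bundling alpha actinin (2.22), rose as well. Among the 10 largest rises in this group were also the inositol trisphosphate kinase ITPKA (2.20), which also binds actin filaments, and the transcription factors ZBTB20 (2.42) and ONECUT2 (1.83). The genes named here passed the test, and they were singled out after their values were seen.

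Some genes with low GC3 fell. In the lowest group of 4 by GC3, 286 of 3385 genes were lower, 42 of them by more than 2-fold. RPS13, a protein of the small ribosomal subunit (chr11:17074388-17077715, minus strand), was at 106 and 87.8 CPM in the sorted libraries and 421 and 447 CPM in cytosol (-2.16 ± 0.13, adjusted p = 3.2e-06, edgeR). COX7B, a small subunit of cytochrome oxidase, was at 39.7 and 29.2 CPM against 142 and 153 CPM (-2.10, and -2.60 at like length and GC3). ANXA5, the phosphatidylserine-binding annexin, was at 84.4 and 71.0 CPM against 207 and 228 CPM (-1.49). The fractions did not overlap in any of these 3, which their choice among the largest falls makes likely. The others of the 10 largest falls in this group were HHLA3 (-2.41), the thioesterase ACOT13 (-1.72), securin (PTTG1, -1.68), the nucleotide-binding protein HINT1 (-1.55), RPS20 (-1.48), the actin monomer-binding thymosin TMSB15A (-1.46) and the splicing factor SF3B6 (-1.46). The longest coding sequence among the 10 was that of ANXA5, at 963 bases, and these genes too were chosen after their values were seen. They do not stand for all genes of low GC3 that fell: in group 1 of the 5 by GC3, 88, 47, 23, 21 and 12 genes were lower from the shortest to the longest group by coding sequence.

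The largest changes within each of 4 classes of gene length were named by rule, so that short genes are seen beside long ones. Among the shortest, CENPQ, a kinetochore protein, was at 109 and 132 CPM in the sorted libraries and 15.2 and 18.1 CPM in cytosol (2.85 ± 0.14, adjusted p = 1.8e-06, edgeR). The other 2 rises there were ITPKA and the zinc finger gene ZNF222 (1.75), and the falls were the mitochondrial MT-ND4L (-3.55) and MT-ND4 (-3.50) and the histone H2AC20 (-3.0). In the next class TES, a focal adhesion protein that binds actin regulators, was at 295 and 231 CPM against 37.5 and 37.1 CPM (2.82 ± 0.14, adjusted p = 1.9e-06, edgeR). ZNF420 (2.89) and ZNF92 (2.79) rose there too. The falls were HMGA1, an architectural chromatin protein (-2.69), ATP1B2, a sodium pump subunit (-2.67), and CST3. In class 3 DBN1, the actin-binding drebrin, was at 1986 and 1664 CPM against 138 and 145 CPM (3.69 ± 0.14, adjusted p = 7.1e-07, edgeR), and the tight junction protein cingulin, encoded by CGN, rose by 3.25. FKBP1A, the target of the drug FK506, was at 40.5 and 40.6 CPM in the sorted libraries and 191 and 213 CPM in cytosol (-2.31 ± 0.12, adjusted p = 1.8e-06, edgeR). Among the longest, SYNE2, UTRN and MYH10 rose most, and MXRA7 (-1.73) fell. NPIPB3, NPIPB4 and NPIPB5 were also among the falls, with values from -2.84 to -1.89, but belong to a family of near-identical copies, which makes their counts uncertain, as it does for the MT genes and the histone.

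**Figure D3:**
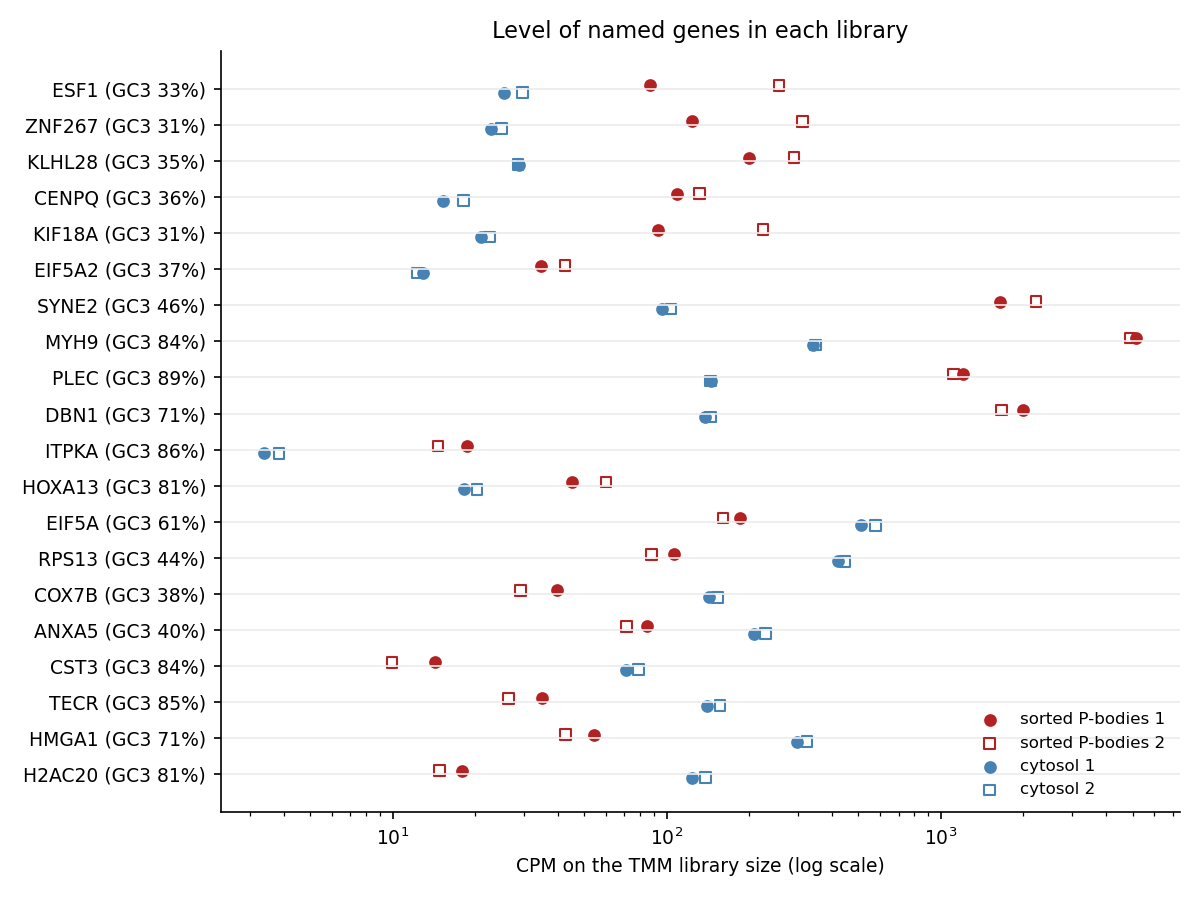
Level of 20 named genes in each library, in CPM on a log scale, with GC3 beside each symbol. Red points are sorted P-bodies and blue points cytosol. The fractions do not overlap for any gene shown, which the choice of genes that passed makes likely. The gap between the red circle and square is widest for ESF1, ZNF267 and KIF18A, which have low GC3.

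Where a gene lies in the genome went with its change, and with its GC3. Median log2 fold change of protein-coding genes ran from -0.51 on chromosome 19 and -0.41 on chromosome 22 to 0.45 on chromosome 13 and 0.47 on chromosome 4. Over 23 nuclear chromosomes the median over protein-coding genes had a rho of -0.98 with median GC3. That value describes 23 points from the same libraries. Chromosome 19 had the highest median GC3 (75.6%) and chromosome 4 the lowest (46.4%). With length and GC3 accounted for, the medians lay between -0.18 (chromosome 21) and 0.14 (chromosome 4). On chromosome 19, 590 of 1210 genes were lower (48.8%), and on chromosome 4, 98 of 703 (13.9%).

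Zinc finger genes, most of which encode DNA-binding repressors, stood apart on chromosome 19. Of the 213 there, 161 were higher and 15 lower (median 1.12, median GC3 39.1%), whereas of the other 997 genes of that chromosome 52 were higher and 575 lower (median -0.64, median GC3 77.9%). Zinc finger genes on other chromosomes had 155 of 257 higher and 36 lower (median 0.57, median GC3 47.0%). At like length and GC3 the medians were 0.56 for those on chromosome 19, 0.36 for those elsewhere and -0.28 for the other genes of chromosome 19. ZNF624, at 42.7 and 88.2 CPM in the sorted libraries and 8.43 and 7.28 CPM in cytosol (3.06), was the next largest rise after ZNF267. ZNF385A, which binds RNA, was at 7.90 and 7.05 CPM against 28.5 and 29.8 CPM (-1.96), the largest fall. Many zinc finger genes are close copies of each other, so reads may be split among them.

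**Figure D4:**
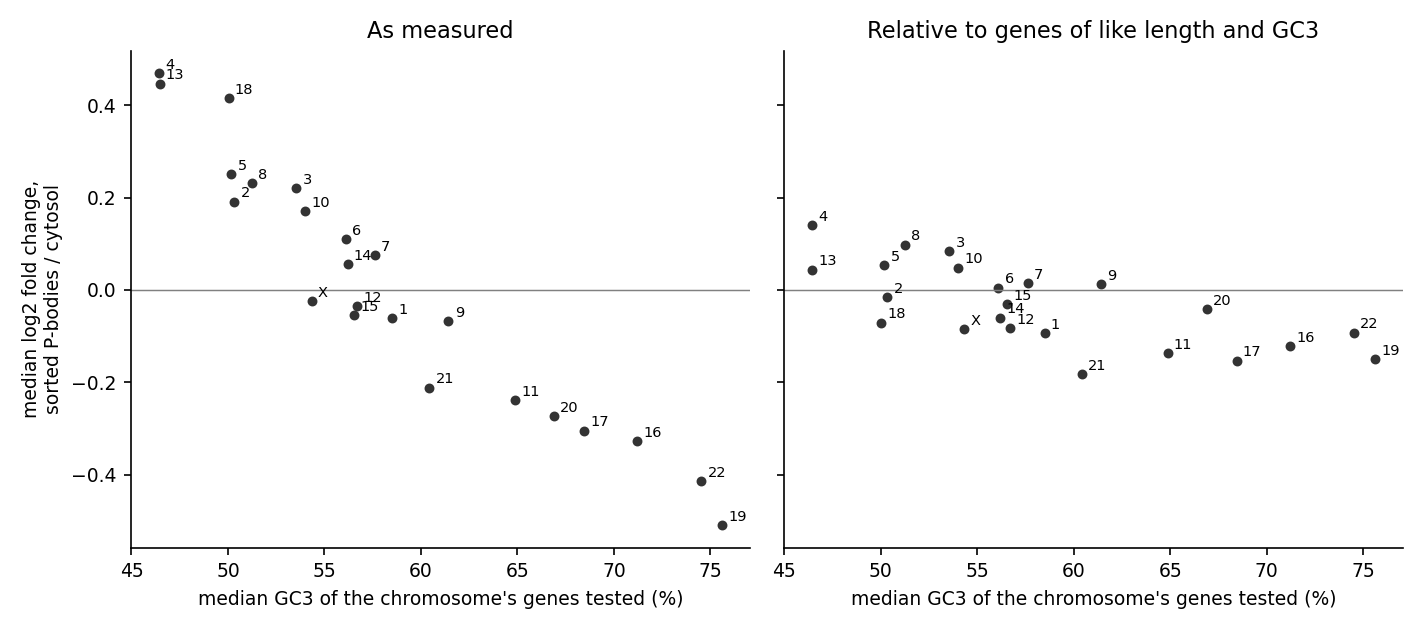
Median log2 fold change of protein-coding genes on each nuclear chromosome (points, labelled by chromosome) against the chromosome's median GC3 in percent. Left, as measured, from -0.51 on chromosome 19 to 0.47 on chromosome 4; right, at like length and GC3, where the medians lie between -0.18 and 0.14.

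Giant proteins linked to actin or membranes were mostly higher, also at like length and GC3. In a list of 22 such genes, 20 were higher and 1 lower (0 without either cytosol library and with the replicate block, 2 without sorted P-bodies 1), with a median of 1.43, and at like length and GC3 14 were higher and 5 lower, with a median of 1.48. SYNE2, a nesprin that joins the nucleus to actin, was at 1635 and 2220 CPM in the sorted libraries and 96.2 and 104 CPM in cytosol. The spectrins SPTBN1 and SPTAN1 rose by 3.15 and 2.34, and the actin and microtubule cross-linker MACF1 by 2.67. Of the talins, which tie integrins to actin, TLN1 was at 164 and 148 CPM in the sorted libraries and 184 and 202 CPM in cytosol (-0.30 on the log2 scale, with an edgeR adjusted p of 0.043, or 0.0528 with the replicate block), and TLN2 did not pass (-0.22). Tubulins and the dyneins with dynactin did not move in this way, while more kinesin genes, given below, were higher than lower in both tests. Tubulins had 3 of 17 higher and 3 lower (7 lower without sorted P-bodies 1, 5 each way without sorted P-bodies 2; median -0.18), then 6 and 2 (median 0.06). Dyneins and dynactin had 13 of 33 higher and 6 lower (10 lower without sorted P-bodies 1; median 0.25), then 7 and 7 (median 0.01).

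A second list held 40 very long coding sequences with no known actin link, of which 32 were higher and 2 lower (median 1.15). At like length and GC3 the count was 18 higher and 8 lower, and the median 0.25. BIRC6, a giant ubiquitin ligase that restrains cell death, was at 1612 and 1766 CPM in the sorted libraries and 299 and 308 CPM in cytosol (2.48). APC, the scaffold that targets beta-catenin for destruction, was at 276 and 526 CPM against 74.0 and 80.3 CPM (2.38). KMT2D, a histone methyltransferase, fell by 1.10, and the dynein-related DNHD1 fell by 0.71. The members of both lists were chosen with earlier results on these libraries known, so their directions are not independent support. A difference between the lists was not tested.

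Substrate receptors of the kelch family, which hand proteins to cullin ubiquitin ligases, were higher in 31 of 34 genes and lower in 1 (median 0.81). Beside genes of like length and GC3 they were higher in 25 and lower in 1 (median 0.77). KLHL28 was at 199 and 291 CPM in the sorted libraries and 29.0 and 28.6 CPM in cytosol (3.09), and KBTBD8 at 263 and 303 CPM against 37.2 and 41.3 CPM (2.85). The one that fell, KLHL29 (-0.33), lost its call in DESeq2 and without either cytosol library. Deubiquitinases named USP were higher in 30 of 46 genes and lower in 6 (median 0.66), with 3 lower without either cytosol library, and 23 against 8 at like length and GC3 (median 0.25). USP15 was at 267 and 380.1 CPM against 48.9 and 55.4 CPM (2.63). The enzymes that carry ubiquitin to the ligases went the other way: of 32 UBE2 genes 7 were higher (4 without either cytosol library) and 21 lower (median -0.52), as for the NEDD8-conjugating UBE2M (-1.35), while UBE2W rose (2.24). Of 43 proteasome subunits, which degrade the tagged proteins, 9 were higher (5 without cytosol 1) and 25 lower (median -0.53). The higher ones included PSMD1 and PSMD2, the largest subunits of its cap (1.25 and 1.35).

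In several families of the nucleus and the centrosome, and in kinesins, most genes were higher in the plain comparison and fewer at like length and GC3. Over all protein-coding genes in that second test 25.7% were higher and 30.6% lower. Protocadherins, given last, did not follow this. Centrosomal CEP genes had 23 of 37 higher and 4 lower (2 without cytosol 1; median 0.78), then 7 higher and 11 lower (median 0.14). The first of these medians was 0.41 without sorted P-bodies 2 and 1.16 without sorted P-bodies 1. CEP97, which restrains cilium formation, was at 372 and 545 CPM in the sorted libraries and 77.7 and 76.8 CPM in cytosol (2.57). Nuclear pore genes had 14 of 23 higher and 1 lower (3 without sorted P-bodies 2, 0 without cytosol 2; median 0.58), then 10 and 6 (median -0.03), and NUP205, an inner ring component, was at 1281 and 1320.0 CPM against 317 and 322 CPM (2.02). The SMC and CHD genes, large ATPases of chromosomes and chromatin, had 12 of 16 higher and 1 lower (0 without either cytosol library; median 1.01), then 5 and 2 (median 0.24). DNA repair genes named FANC, BRCA or RAD had 15 of 27 higher and 7 lower (4 without cytosol 1; median 0.76), then 8 and 5 (median 0.01). Kinesin motors had 19 of 36 higher and 3 lower (7 without sorted P-bodies 1, 0 without either cytosol library; median 0.49), then 15 and 1 (median 0.28). KIF18A, which caps microtubules at the kinetochore, was at 92.4 and 224 CPM against 21.0 and 22.6 CPM (2.86). Protocadherins, adhesion proteins of the cadherin class, had 9 of 33 higher, a share below that of all protein-coding genes (32.8%), and 3 lower (0 or 1 without cytosol 2, cytosol 1 or sorted P-bodies 2). Their median was 0.44, or 0.25 without sorted P-bodies 2, and at like length and GC3 10 were higher and 0 lower (median 0.45).

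Ribosomal protein genes were mostly lower. None of 85 cytosolic ribosomal protein genes was higher and 79 were lower, with a median of -1.31, and at like length and GC3 the count was 2 higher and 75 lower (median -1.10). mRNAs outside the ribosome known to start with the pyrimidine tract that puts translation under mTOR control (5′ TOP mRNAs) had 4 of 19 higher (2 without either cytosol library) and 13 lower (median -0.78). Against genes of like length and GC3 1 was higher and 15 lower (median -1.001). TPT1, the translationally controlled tumour protein, was at 202 and 181 CPM against 588 and 615 CPM (-1.65), and the elongation factors EEF1A1 and EEF1B2 changed by -0.94 and -1.50. NAP1L1, a histone chaperone with a GC3 of 30.2%, was at 733 and 826 CPM against 368 and 384 CPM; it rose by 1.05 and changed by -0.36 at like length and GC3. EEF2 did not pass (-0.01, adjusted p = 0.956, edgeR). Genes named EIF or EEF, among them most translation factors, had 30 of 86 higher and 32 lower. That is near the shares of all protein-coding genes (32.8% and 33.4%), although not all 86 had a coding sequence. Their median was -0.10, or -0.05 without cytosol 2 and 0.22 in DESeq2 over 140 genes. Of the 64 with a coding sequence 10 were higher and 32 lower at like length and GC3 (median -0.28).

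A pair of closely related translation factors parted. EIF5A, the widely expressed form of the factor that helps ribosomes past stalling sequences, was at 184 and 160.0 CPM in the sorted libraries and 509.9 and 576 CPM in cytosol (-1.66 ± 0.13, adjusted p = 7.1e-06, edgeR). Its paralogue EIF5A2 was at 34.8 and 42.4 CPM against 12.9 and 12.3 CPM (1.61 ± 0.13, adjusted p = 8.1e-06, edgeR). GC3 was 60.8% in EIF5A and 36.6% in EIF5A2, and at like length and GC3 the changes were -1.27 and 0.77. Aminoacyl-tRNA synthetases had 15 of 35 higher and 7 lower (median 0.26), with TARS1, the threonyl enzyme, at 689 and 708 CPM against 262 and 279.6 CPM (1.37). Without cytosol 1 the count was 8 higher and 4 lower (median 0.16), and without cytosol 2 it was 12 and 1.

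Nuclear-encoded genes of the respiratory chain and the mitochondrial ribosome were mostly lower. Of 37 NDUF genes of complex I, 2 were higher and 30 lower (median -0.96). The exceptions were NDUFS1, its largest subunit (1.07), and NDUFA5 (0.70), with GC3 of 38.9% and 37.1%. Of 20 COX and UQCR genes of complexes IV and III, 17 were lower and only UQCRC1 was higher (0.37), a call lost under library size or upper-quartile scaling and without either cytosol library. ATP synthase genes had 0 of 19 higher (1 without sorted P-bodies 2) and 16 lower (median -0.95), with ATP5MF at 12.8 and 8.88 CPM in the sorted libraries and 53.1 and 51.6 CPM in cytosol. Mitochondrial ribosomal proteins had 5 of 77 higher and 58 lower (median -0.68), and 3 were higher without cytosol 1. These families kept negative medians at like length and GC3, from -1.03 for complexes III and IV to -0.42 for the mitochondrial ribosome. Import genes named TIMM or TOMM had 1 of 23 higher and 12 lower (median -0.47), then 3 and 6 (median -0.16). The 1 higher became 3 without sorted P-bodies 1, 4 without sorted P-bodies 2 and 0 without cytosol 1.

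Replication-dependent histones, whose mRNAs end in a stem-loop in place of a poly(A) tail, were lower in 35 of 43 genes and higher in 0 (median -1.87). Their median GC3 was 78.4% and their median length 527 bases. At like length and GC3 28 of 42 were lower and 4 higher (median -0.74). HOX genes, which set position along the body axis, had a median GC3 of 76.4% and were higher in 3 of 36 (1 without cytosol 1) and lower in 19 (median -0.45). This turned at like length and GC3 to 11 higher and 5 lower (median 0.09). HOXA13 was at 44.9 and 60.0 CPM in the sorted libraries and 18.1 and 20.3 CPM in cytosol (1.45), and HOXB3 at 17.0 and 16.7 CPM against 39.1 and 35.4 CPM (-1.14).

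**Figure D5:**
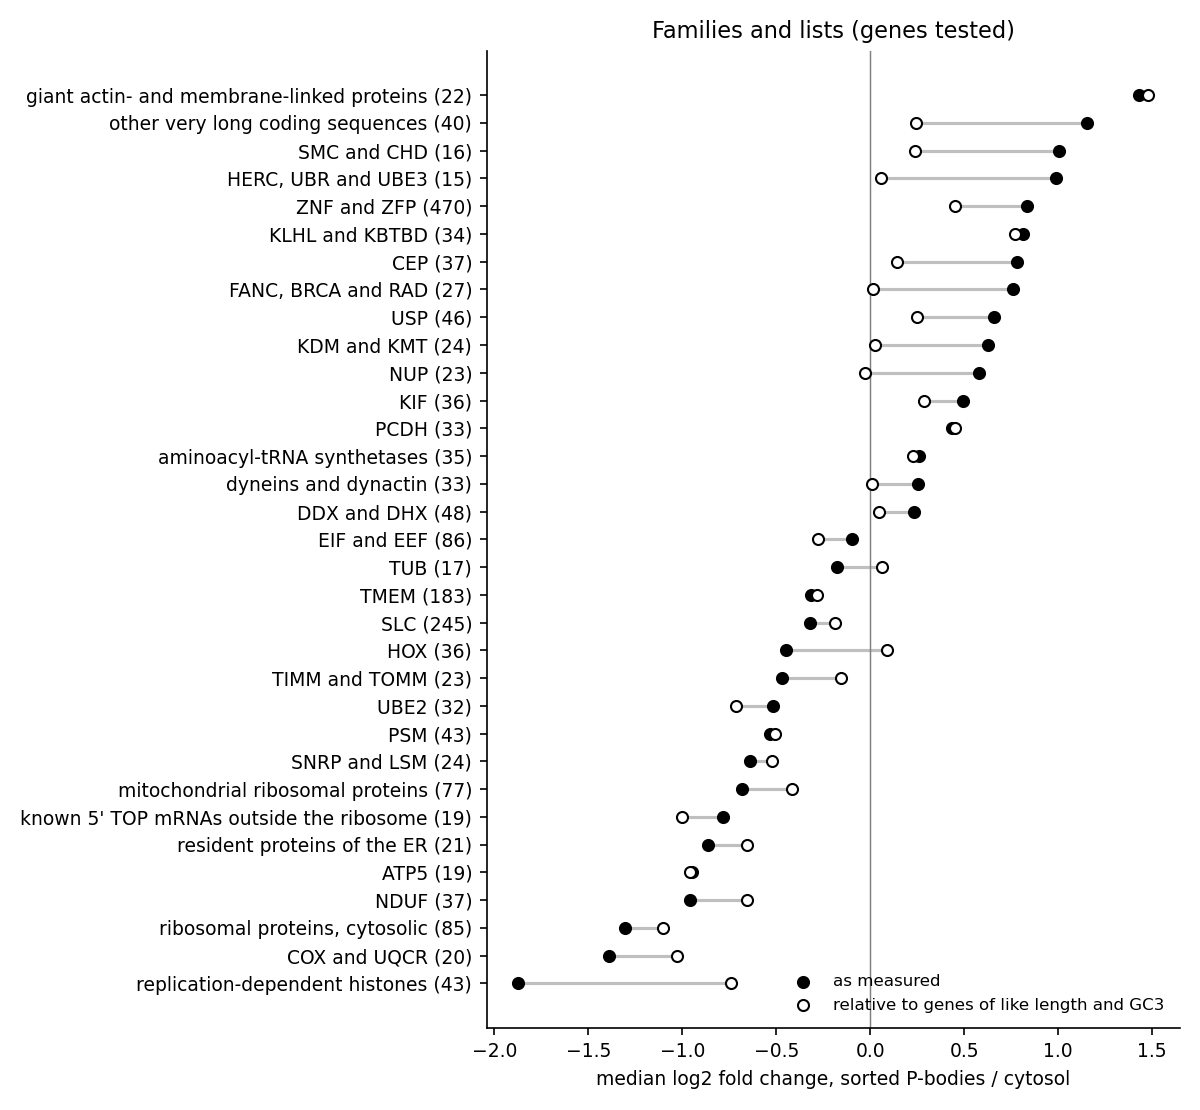
Median log2 fold change of 33 gene families and lists, with the number of genes tested in parentheses, as measured (filled) and at like length and GC3 (open). Medians of the CEP, NUP, repair and very long genes move toward 0, those of the giant actin-linked and kelch genes stay close to their first value, and those of the HOX, NUP and TUB genes change sign.

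Genes for resident proteins of the endoplasmic reticulum were mostly lower. Of 21 in the list 1 was higher (3 without sorted P-bodies 1) and 17 lower (median -0.86), and their summed level was 3877 and 3664 CPM in the sorted libraries and 5299 and 5750.3 CPM in cytosol. SEC61B, a subunit of the translocation channel, was at 21.6 and 17.4 CPM against 61.5 and 65.5 CPM (-1.70), and SSR1, a translocon-associated subunit, was the one that rose (0.73). Solute carriers had 53 of 245 higher and 110 lower (median -0.32). The largest rises among those that passed with at least 10 CPM in a fraction were SLC7A11 and SLC38A2. The cystine transporter SLC7A11 was at 177 and 271 CPM against 55.1 and 64.0 CPM (1.91). The amino acid transporter SLC38A2 was at 845 and 948 CPM against 238 and 246 CPM (1.89). Small soluble redox enzymes had 2 of 22 higher and 15 lower (median -0.70). Superoxide dismutase 1 (SOD1) was at 93.2 and 75.5 CPM against 247 and 261 CPM (-1.59), while thioredoxin reductase 1 (TXNRD1) rose (1.10).

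Lists of signalling and metabolic genes held members that rose and members that fell. In the Wnt and Hippo list 20 of 39 genes were higher and 13 lower. APC and the Hippo kinase activator MOB1B (1.86) rose, and the transcription factors TCF7L1 (-1.87) and TCF7 (-1.45) fell. In the mTOR and PI3K list 14 of 33 were higher and 12 lower. RICTOR, the scaffold of mTOR complex 2, was at 330.0 and 497 CPM in the sorted libraries and 76.1 and 80.5 CPM in cytosol (2.40), whereas the translational repressor EIF4EBP1 was at 22.7 and 20.1 CPM against 75.7 and 76.9 CPM (-1.83). Autophagy genes were 11 higher and 11 lower of 30 (10 and 7 without cytosol 2). The scaffold RB1CC1 rose (1.81), and the small ubiquitin-like proteins MAP1LC3B and GABARAPL2 fell (-1.04 and -1.05). Sterol synthesis had 7 higher and 7 lower of 20 (11 lower without sorted P-bodies 1), with DHCR7, which makes the last step, lower (-0.84). Of 29 nucleotide synthesis genes 10 were higher and 9 lower (6 and 5 without cytosol 1, 7 and 4 without cytosol 2). In the autophagy, sterol and nucleotide lists the shares lay near those of all protein-coding genes (32.8% higher and 33.4% lower). The large multienzyme proteins CAD and PFAS, of pyrimidine and purine synthesis, rose (1.27 and 1.68) although their GC3 was 65.7% and 68.0%, and the small kinase NME1 fell (-2.02).

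The mRNAs of 4 proteins that mark P-bodies were examined. DCP1A was at 272 and 321 CPM in the sorted libraries and 139 and 129 CPM in cytosol (1.14 ± 0.12, adjusted p = 4.1e-05, edgeR). LSM14A changed by 0.38 and DDX6 by 0.34 (adjusted p = 0.016 and 0.025, edgeR). Both values turned negative at like length and GC3, -0.39 and -0.33. Both calls were lost with library size as the only scaling and without either cytosol library, and that of DDX6 also with the replicate block (adjusted p = 0.0843, edgeR). EDC4 did not pass (0.22, adjusted p = 0.098, edgeR) but did without sorted P-bodies 2 and with a stricter filter on low counts. EDC4 passed upward at like length and GC3 (0.47, adjusted p = 0.0042, edgeR), and DCP1A stayed higher there (1.02, adjusted p = 0.00016, edgeR). These mRNA levels say nothing of where the proteins are and do not check the sort.

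Noncoding RNAs took a small share of reads, and several of the largest changes lay among them. Small nucleolar RNAs, which guide modification of ribosomal RNA, took 0.092% and 0.085% of reads in the sorted libraries and 0.028% and 0.027% in cytosol, and 25 of 108 were higher and 9 lower. That is 23.1% higher, below the 28.8% over all genes tested. Among the H/ACA and Cajal body RNAs 21 of 64 were higher and 7 lower, or 11 and 3 in DESeq2 and 13 and 4 without cytosol 2. SCARNA6 was at 85.0 and 68.1 CPM in the sorted libraries and 12.8 and 11.6 CPM in cytosol (2.65), and SNORD17 at 87.3 and 98.2 CPM against 25.8 and 27.0 CPM (1.81). Host transcripts of such RNAs (SNHG and GAS5) had 3 of 25 higher (1 without cytosol 2) and 13 lower (median -0.34), or 8 lower without cytosol 1. Of 10 RNAs known to stay mostly in the nucleus 3 were higher and 2 lower. Their median log2 fold change was 0.28, or 0.01 without sorted P-bodies 2. The higher count is near the share over all genes tested (28.8%), and the lower count is below it (29.0%). KCNQ1OT1, an imprinted antisense RNA whose reads may be mixed with those of KCNQ1, was at 122 and 178 CPM against 73.9 and 70.3 CPM (1.06), and RNU4-1, a spliceosomal RNA with near-identical copies, at 7.72 and 6.89 CPM against 38.5 and 39.4 CPM (-2.41). Another spliceosomal RNA, RNU1-1, rose from low levels, at 3.63 and 4.02 CPM against 0.859 and 1.08 CPM (1.97, adjusted p = 0.000147, edgeR). The RNA of RNase MRP, RMRP, passed upward (0.41, adjusted p = 0.024, edgeR) but not with the replicate block (adjusted p = 0.0824, edgeR). NEAT1 and MALAT1 did not pass (-0.14 and 0.43, adjusted p = 0.275 and 0.135, edgeR), and MALAT1 was at 1203 and 2177 CPM in sorted P-bodies 1 and 2 and at 1304 and 1209 CPM in cytosol 1 and 2.

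No gene was found in one fraction alone. There were 0 genes with at least 20 reads in both libraries of one fraction and 0 reads in both libraries of the other, in either direction. The largest ratio among tested genes was that of FP671120.2, a noncoding transcript with copies elsewhere, at 48.9 and 45.7 CPM in the sorted libraries and 0.614 and 1.04 CPM in cytosol, and the largest fall that of the Y RNA RNY1, at 3.27 and 3.19 CPM against 123 and 135 CPM.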

How the data were processed

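RNA of sorted P-bodies and cytosol was sequenced in 2 libraries each; extraction used TRIzol, per the labels' protocols. Per the submitters' processing notes, hg38 was the genome build and the tools included featureCounts 2.0.1, STAR 2.7.9a and cutadapt 1.18. The deposited values are raw counts, whole and without normalization, with each gene's length and position. The annotation and strand setting are not stated in the sources used here, so overlapping and antisense genes and near-identical copies are uncertain.

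Counts were tested with edgeR 4.0.16 (R 4.3.3): filterByExpr, TMM, the quasi-likelihood test with fraction as the only term, Benjamini-Hochberg adjustment over all genes tested and a threshold of 0.05. The SE is the absolute estimate divided by the root of F. Pair ratios add 0.5 CPM. Gene types, coding sequences, UTRs and introns came from GENCODE v29, in which 57049 gene identifiers matched and 340 tested genes did not; of the protein-coding genes tested, 72 had no coding sequence there. The joint trend on log10 deposited gene length and GC3 was a loess fit (span 0.3) entered as an offset, added after the data were seen. Both fits were run on simulated counts with few changed genes, balanced up and down, and with straight trends for the joint fit. Far more genes passed here, so the simulation does not vouch for the scaling or the calls. Depth limits low genes: a count of 0 is taken to allow up to 3 counts, or 0.157 CPM, which covers counting error only.

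Members, lists, families and tests were chosen with earlier results of these data known. Named genes were the 3 largest rises and falls in each of 4 length classes and among noncoding genes, up to 2 each way per family or list, the 5 with the widest gap between sorted libraries and the 6 largest each way at their length, all with an adjusted p under 0.05 (except the gap), the same direction in both pairs and at least 10 CPM in a fraction. Some genes that the rule names are not reported here. The labels give the libraries a batch number, 1 or 2, shared across fractions, so the numbers pair the libraries; deviations of same-numbered libraries had a correlation of 0.0894 across 10610 genes. The replicate block, DESeq2 1.42.0, other scalings and filters, and each library left out were alternatives. The knockdown libraries and editing scores were not used here.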

Additional observations from a re-analysis of the deposited data

How the results depend on the processing

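With the replicate block 5520 genes were higher and 5622 lower, and rho with GC3 was -0.53. Among 297 named genes the block ended 3 calls, those of DDX6, RMRP and TLN1, and changed no other. Leaving out each library in turn gave 4020 to 6208 genes higher and 3976 to 6507 lower; a lone library is then assumed to vary like the others. At like length and GC3 the genes higher ranged from 2315 to 4307, against 3475 with all libraries. The length trend over all genes tested, a rho of 0.22, was 0.34 with a mean of at least 10 CPM, 0.33 over protein-coding genes, 0.26 on the longest transcript, 0.22 (0.2214) on the raw ratio and 0.15 to 0.21 (0.1524 to 0.205) without each library. The GC3 trend was -0.56 above 10 CPM and -0.48 to -0.55 (-0.4771 to -0.5519) without each library. The intron trend was 0.21 (0.2075) above 10 CPM and 0.17 to 0.18 (0.1712 to 0.1831) without each library. The cause of these shifts was not tested. No named gene changed direction under the alternatives run; 56 of the named genes' alternative values lost the call and 2 gained it, 38 of the losses without a cytosol library. Most named genes were chosen for passing with the same direction in both pairs, so kept directions were likely from the start. The fit at like length and GC3 is not among these alternatives, and LSM14A, DDX6 and NAP1L1 turned negative there. Precision is limited by 2 libraries per fraction.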
